A study of Mus musculus with 14 samples.

Results

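A set of 10 AP-1 and immediate-early genes were followed through DSS colitis in mouse colon. They were Fos, Fosb, Fosl1, Jun, Junb, Egr1, Atf3, Ier3, Zfp36 and Myc. They were given as a list and found on the array through the RefSeq accession of each probe. They had 14 probes among the 41174 probes of the array, and 10 of 19096 gene symbols. All 14 probes were well above background, a detection flag of the scanner software, on all 14 arrays, and all 14 were tested.

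The colons came from 14 female C57BL/6 mice aged 4 to 6 months and fed chow. Flox mice carry loxP-flanked GR (Nr3c1) alleles on both chromosomes and served as controls. GR iKO mice carry the same alleles and Villin-cre, which is active in the intestinal epithelium, so immune, stromal and muscle cells of the colon keep an intact GR gene. For 7 days, mice drank regular water (4 Flox, 4 GR iKO) or water with 2.5% dextran sodium sulfate (DSS, 3 Flox, 3 GR iKO), which injures the colonic epithelium. RNA of 1 whole colon was hybridized to each 1-colour Agilent array. The comparisons asked how the genes respond to DSS and whether epithelial GR alters that response.

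AP-1 is a dimer of a Jun protein with a Fos, Jun or ATF protein that binds DNA at TGANTCA. Immediate-early genes are transcribed within minutes of a growth factor, cytokine or stress signal, through MAP kinases acting on factors already present, and many of their mRNAs decay quickly. GR is known to restrain AP-1 activity, and in the intestine AP-1 is known for its part in regeneration and inflammation.

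Promoter sequence is shown for the members that rose in both genotypes, where RefSeq has it, and for Fos, which did not pass the test, as a contrast. Each line gives the 150 bases before the RefSeq start site (assembly GRCm38.p6), 5′ to 3′ on the strand of the gene. Capitals mark matches to the motifs named after the sequences.
Ier3 (chr17:35821563-35821712, plus strand): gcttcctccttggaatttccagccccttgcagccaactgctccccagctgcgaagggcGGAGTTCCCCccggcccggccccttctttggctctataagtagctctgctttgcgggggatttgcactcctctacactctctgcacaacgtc
Zfp36 (chr7:28379229-28379378, minus strand): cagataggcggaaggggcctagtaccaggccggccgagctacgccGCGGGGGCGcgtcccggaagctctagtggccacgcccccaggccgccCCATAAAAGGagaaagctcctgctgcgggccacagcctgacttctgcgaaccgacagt
Junb (chr8:84978749-84978898, minus strand): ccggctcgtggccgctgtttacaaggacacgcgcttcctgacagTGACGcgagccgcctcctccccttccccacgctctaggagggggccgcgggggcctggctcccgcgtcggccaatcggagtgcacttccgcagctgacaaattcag
Jun (chr4:95052223-95052372, minus strand): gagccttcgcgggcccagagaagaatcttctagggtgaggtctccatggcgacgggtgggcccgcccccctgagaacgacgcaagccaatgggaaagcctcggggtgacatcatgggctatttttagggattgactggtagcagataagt
Fos (chr12:85473740-85473889, plus strand): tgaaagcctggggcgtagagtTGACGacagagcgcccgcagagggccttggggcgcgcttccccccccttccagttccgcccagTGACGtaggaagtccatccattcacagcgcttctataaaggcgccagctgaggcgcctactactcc

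The motifs were sought on both strands in the 250 bases before the start site of the 7 members with a RefSeq promoter and of all 32851 promoters of that length in the table. The full AP-1 site TGANTCA was in 0 of 7 members and 6.75% of all promoters. The cAMP response element TGACGTCA was in 0 of 7 and 1.55%. The shorter core TGACG of that element, which the full element also contains and which was added after the windows had been read, was in 4 of 7 (Fos, Fosb, Junb and Atf3) and 17.8%. The NF-kB site was in 3 of 7 (Fos, Fosb and Ier3) and 7.25%. The EGR site GCGNGGGCG was in 2 of 7 (Fosb and Zfp36) and 4.70%. The CArG box, bound by serum response factor, was in 1 of 7 (Zfp36) and 1.47%. In the lines above, Ier3 has the NF-kB site at -92 to -83 from its start site, and Zfp36 has the EGR site at -105 to -97 and the CArG box at -58 to -49. Junb and Fos have the core TGACG, and no motif of this set matched in the Jun window. A match describes these letters only.

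Levels are log2 processed intensities relative to the 75th percentile of the same array, so they compare arrays for 1 probe and not genes with each other. The 75th percentile itself was 707 to 1003 on Flox water arrays, 740 to 963 on GR iKO water arrays, 262 to 675 on Flox DSS arrays and 493 to 713 on GR iKO DSS arrays. Arrays of a group correlated at 0.958 to 0.989 over probes. The variance between mice was larger on DSS for 82.8% of probes, with a median ratio of 3.12, so the limma fit gave water and DSS arrays separate weights. Nr3c1 itself, on its brightest probe, stood at 57.3% of the Flox level in GR iKO on water (exact permutation p = 0.0286, the smallest that 4 against 4 mice allow). On DSS it stood at 56.1% (exact permutation p = 0.1, the smallest that 3 against 3 allow). The other 3 Nr3c1 probes stood at 47.6% to 55.7% on water, 1 of them with overlapping levels (exact permutation p = 0.143). On DSS they stood at 55.2% to 75.7%, the last with an exact permutation p of 0.5. Where these probes lie relative to the deleted part was not determined, and other colon cells keep Nr3c1.

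With DSS, 5 of the 10 members rose in Flox (Jun, Junb, Egr1, Ier3 and Zfp36) and 0 fell. The background of probes called in Flox was 21.8% higher and 25.4% lower. In GR iKO, 6 rose, the same 5 and Fosl1, and 0 fell, against a background of 19% called higher and 19.7% lower. The median log2 change of the members was 0.53 in Flox and 1.23 in GR iKO, beside -0.03 and 0.00 over the 15540 genes tested. Both genotypes have their own water controls. In whole tissue, more or fewer cells of a type and more or less RNA per cell cannot be told apart. These directions are relative to the bulk of probes: scaled to the spike-in transcripts instead, the median probe moved by -2.41 in Flox and -0.95 in GR iKO. On that scale Jun, Junb, Egr1 and Zfp36 in Flox, and Jun in GR iKO, had changes below 0. There 8 members were called in Flox, all lower, among them Jun, Junb and Zfp36, and Ier3 was at 0.39 with no call (adjusted p = 0.375). In GR iKO 2 members were called, Fosl1 and Ier3, both higher.

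**Figure D1:**
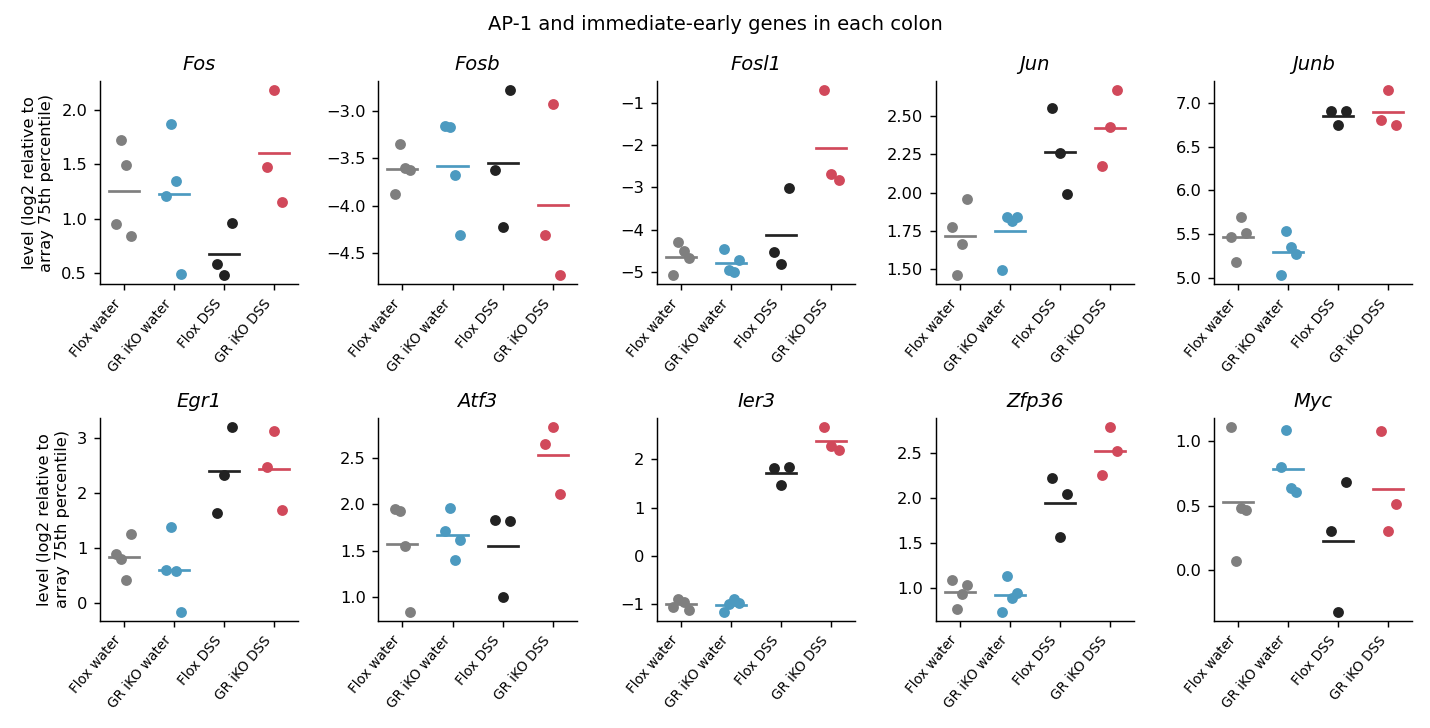
Level of each gene in each colon (y axis, log2 relative to its array 75th percentile, a separate scale per panel) in the 4 groups. Each point is 1 mouse and each line a group mean. All DSS points of Ier3, Junb, Zfp36, Egr1 and Jun lie above the water points of their genotype, and the Fosl1 points of GR iKO on DSS lie above all others.

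Ier3, an early response gene that modulates cell survival and NF-kB signalling, changed most. Its levels on water were -1.05, -0.90, -0.95 and -1.11 in Flox and -1.15, -0.99, -0.90 and -0.97 in GR iKO. On DSS they were 1.81, 1.47 and 1.84 in Flox and 2.66, 2.28 and 2.19 in GR iKO. Every DSS mouse was above every water mouse, and every GR iKO mouse on DSS was above every Flox mouse on DSS. The change was 2.71 ± 0.15 (SE) on the log2 scale in Flox, or 6.54-fold (limma adjusted p = 9.23e-07). It was 3.38 ± 0.15 in GR iKO, or 10.4-fold (limma adjusted p = 1.25e-07).

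Zfp36 encodes tristetraprolin (TTP), which binds AU-rich mRNAs of cytokines and promotes their decay. Its levels were 1.09, 0.76, 0.93 and 1.03 in Flox on water and 0.74, 1.14, 0.89 and 0.94 in GR iKO on water. On DSS they were 2.23, 1.57 and 2.04 in Flox and 2.26, 2.79 and 2.53 in GR iKO. The DSS mice did not overlap the water mice in either genotype. Zfp36 rose by 0.99 ± 0.19 in Flox (adjusted p = 0.00112) and by 1.60 ± 0.19 in GR iKO (adjusted p = 7.3e-05). Its other probe was called in the same direction in both genotypes, with changes of 0.98 and 1.68.

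Junb, a Jun protein that often tempers Jun, stood at 5.47, 5.18, 5.69 and 5.51 in Flox and at 5.03, 5.54, 5.36 and 5.28 in GR iKO on water. With DSS the levels were 6.91, 6.75 and 6.91 in Flox and 6.81, 7.15 and 6.75 in GR iKO. All 6 DSS mice were above all 8 water mice, and the genotypes overlapped on DSS. Junb rose by 1.39 ± 0.20 in Flox (adjusted p = 0.000185) and, for GR iKO, by 1.60 ± 0.20 (adjusted p = 0.000121), and the other Junb probe gave 1.35 and 1.58.

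Jun, the partner that most AP-1 dimers share, moved less. It stood at 1.78, 1.46, 1.66 and 1.96 in Flox and at 1.49, 1.84, 1.82 and 1.84 in GR iKO on water. The DSS mice showed 2.56, 2.26 and 1.99 in Flox and 2.17, 2.43 and 2.67 in GR iKO. The groups did not overlap, but Flox DSS replicate 4 was close to the highest Flox water mouse. The rise was 0.55 ± 0.20 in Flox (adjusted p = 0.0406), against 0.68 ± 0.20 for GR iKO (adjusted p = 0.0199). The Flox call was lost in 5 of 14 fits that left out 1 array, among them those without Flox DSS replicate 1 (adjusted p = 0.248) or 2 (0.128). It was also lost with normexp background correction (adjusted p = 0.0552) and with the replicate block (0.0501). The GR iKO call was lost without GR iKO DSS replicate 3 (adjusted p = 0.0515) or 4 (0.116).

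Egr1, a zinc finger factor induced through serum response factor, stood at 0.89, 0.81, 0.43 and 1.25 in Flox and at 0.61, 1.38, 0.58 and -0.16 in GR iKO on water. With DSS its level was 1.64, 2.34 and 3.20 in Flox and 2.47, 3.13 and 1.70 in GR iKO. The DSS mice lay above the water mice but were spread widely. Egr1 rose by 1.55 ± 0.51 in Flox (adjusted p = 0.0242) and by 1.83 ± 0.51 in GR iKO (adjusted p = 0.0131). The Flox call was lost without Flox DSS replicate 2 (adjusted p = 0.0871) or 4 (0.123), and the GR iKO call without GR iKO DSS replicate 3 (0.0681).

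Fosl1 encodes Fra-1, a Fos protein that accumulates under sustained MAP kinase signalling. On water its levels were -5.07, -4.29, -4.51 and -4.67 in Flox and -4.45, -4.95, -5.00 and -4.72 in GR iKO. On DSS they were -4.52, -4.82 and -3.02 in Flox and -0.71, -2.68 and -2.84 in GR iKO. In Flox, replicates 1 and 2 lay within the range of the water mice and replicate 4 above it, whereas all 3 GR iKO mice lay above every other mouse. The signal was low. Before scaling, Flox DSS replicate 4 had an intensity of 32.2, within the 27.1 to 51.1 of Flox water. Its array had the lowest 75th percentile (262), so its place above the water mice rests on the scaling. The GR iKO DSS intensities were 69.0 to 437. Fosl1 rose by 2.71 ± 0.47 in GR iKO, or 6.53-fold (adjusted p = 0.000892). In Flox the difference was 0.52 ± 0.47 (adjusted p = 0.392), with a 95% interval of -0.51 to 1.54.

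Fos, the classical Jun partner, stood at 0.95, 1.72, 1.49 and 0.85 in Flox and at 1.21, 1.88, 1.35 and 0.49 in GR iKO on water. On DSS it stood at 0.58, 0.48 and 0.96 in Flox and at 1.48, 2.18 and 1.16 in GR iKO. DSS and water mice overlapped in both genotypes. The difference with DSS was -0.58 in Flox (95% interval -1.55 to 0.40, adjusted p = 0.313) and 0.37 in GR iKO (-0.60 to 1.35, adjusted p = 0.543).

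Fosb, a close relative of Fos, stood at -3.88, -3.35, -3.60 and -3.63 in Flox and at -3.16, -3.17, -3.67 and -4.31 in GR iKO on water. With DSS it was at -3.63, -4.23 and -2.78 in Flox and at -4.31, -2.92 and -4.74 in GR iKO. All groups overlapped. The difference was 0.07 in Flox (95% interval -0.95 to 1.09, adjusted p = 0.915) and -0.41 in GR iKO (-1.43 to 0.61, adjusted p = 0.521).

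Atf3, a stress-induced ATF protein, stood at 1.95, 1.92, 1.56 and 0.84 in Flox and at 1.71, 1.96, 1.40 and 1.62 in GR iKO on water. On DSS it stood at 1.83, 1.00 and 1.82 in Flox and at 2.65, 2.83 and 2.11 in GR iKO. Flox mice overlapped, whereas the 3 GR iKO mice on DSS were above all others. The difference was -0.02 in Flox (95% interval -0.84 to 0.80, adjusted p = 0.971) and 0.86 in GR iKO (0.04 to 1.67, adjusted p = 0.0911), which did not pass the threshold.

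Myc, a growth-promoting factor and an early response gene, stood at 1.11, 0.07, 0.48 and 0.47 in Flox and at 0.80, 1.08, 0.64 and 0.61 in GR iKO on water. The DSS levels were 0.30, -0.32 and 0.69 in Flox and 1.08, 0.30 and 0.52 in GR iKO. On this probe the groups overlapped, and the difference was -0.31 in Flox (adjusted p = 0.481) and, for GR iKO, -0.15 (adjusted p = 0.756). Its other probes differed by -0.81 (adjusted p = 0.0617) and -0.53 (adjusted p = 0.115) in Flox. In GR iKO they differed by -0.43 (adjusted p = 0.329) and -0.41 (adjusted p = 0.239), and neither was called in either genotype. On the second of these probes, every DSS mouse lay below every water mouse of its genotype.

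**Figure D2:**
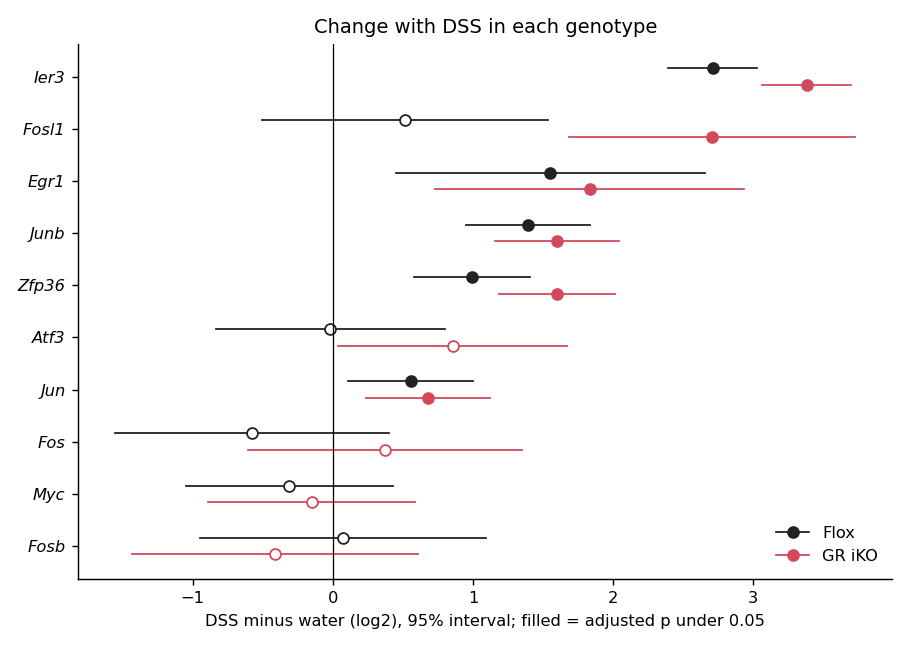
Difference between DSS and water (x axis, log2) for each gene in Flox and GR iKO, with 95% intervals of the limma fit. Filled points have an adjusted p under 0.05: 5 genes in Flox and 6 in GR iKO, with Ier3 at 2.71 and 3.38 the furthest from 0.

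GR loss alone left no called difference: on water, 0 of 10 members were called, against a background of 0.0237%, and all differences lay between -0.24 and 0.25. Without adjustment, 0 members had a limma p under 0.05. On DSS, 0 of 10 members were called between GR iKO and Flox, against a background of 0.0203% (6 probes). Without adjustment, 3 of 10 had a limma p under 0.05, as did 17.6% of all probes (5206). In 5 members (Fos, Fosl1, Atf3, Ier3 and Zfp36) every GR iKO mouse on DSS was above every Flox mouse on DSS. This held for 11.2% of all probes.

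The DSS difference was 2.05 ± 0.60 for Fosl1 (95% interval 0.74 to 3.35, adjusted p = 0.122) and 0.67 ± 0.19 for Ier3 (0.26 to 1.08, adjusted p = 0.112). It was 0.58 ± 0.24 for Zfp36 (0.05 to 1.11, adjusted p = 0.242). The other Zfp36 probe gave 0.67, with an interval that includes 0 (-0.008 to 1.35, adjusted p = 0.288). The DSS difference was 0.98 for Atf3 (-0.06 to 2.03, adjusted p = 0.316) and 0.93 for Fos (-0.32 to 2.18, adjusted p = 0.441). With 1 spread for all arrays, Fosl1 (adjusted p = 0.0294) and Ier3 (0.0156) would have been called. That setting called 3902 probes, against 6 in the main fit. Without Flox DSS replicate 4, whose scaled Fosl1 level was the highest of Flox, Fosl1 was called too (2.59, adjusted p = 0.0461). Without that mouse, 810 probes were called. Dropping any other single mouse gave no Fosl1 call, and dropping any single mouse gave no Ier3 call. Across all 25 alternatives, Fosl1 was called in 3 and Ier3 in 2.

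Of the slides, 2 held DSS mice of both genotypes. Since the groups do not overlap for these 5 members, the sign within a slide is fixed, and the sizes are given as a description. For Fosl1, GR iKO minus Flox was 0.19 on 1 slide and 1.84 on the other. For Ier3 it was 0.35 and 0.47. Junb, Jun and Egr1 differed by 0.04, 0.16 and 0.04 between the genotypes on DSS, with 95% intervals of -0.52 to 0.61, -0.41 to 0.72 and -1.37 to 1.45.

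The interaction of genotype and DSS, taken as the GR iKO response less the Flox response, was called for 0 of 10 members, against a background of 0%. Without adjustment, limma gave 4372 probes (14.8%) and 3 members a p under 0.05. It was 2.19 for Fosl1 (95% interval 0.75 to 3.64, adjusted p = 0.184), 0.67 for Ier3 (0.22 to 1.12, adjusted p = 0.188) and 0.61 for Zfp36 (0.02 to 1.19, adjusted p = 0.321). For the other Zfp36 probe the interval included 0 (0.70, -0.05 to 1.45, adjusted p = 0.371). With a weight per array, the Fosl1 interaction was called (2.43, adjusted p = 0.0284), as were 2065 probes. With spike-in scaling it was called too (3.58, adjusted p = 0.0384), as were Junb, Atf3, Ier3 and Zfp36. That scale called 8480 probes, all higher, and moved the median interaction over all probes to 1.42, so the call is not particular to Fosl1. The Fosl1 interaction was called in 0 of 14 fits that left out 1 array. Since the main fit did not call it, the different calls of Fosl1 in Flox and GR iKO are not shown to be a difference between the genotypes.

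**Figure D3:**
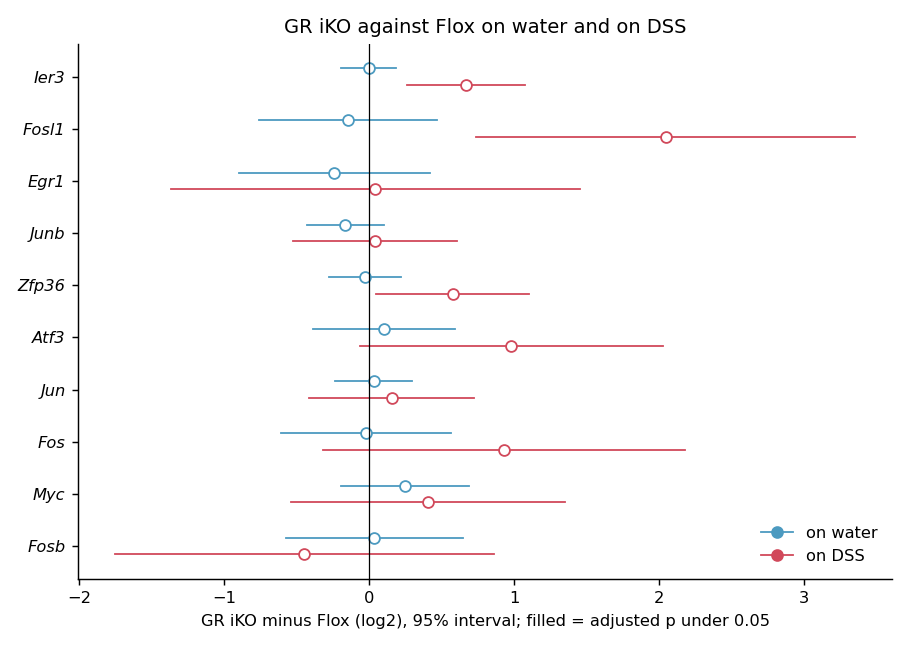
Difference between GR iKO and Flox (x axis, log2) for each gene on water and on DSS, with 95% intervals. No point is filled, since no adjusted p was under 0.05. The DSS intervals of Fosl1, Ier3 and Zfp36 lie above 0, each on the brightest probe of its gene. That of the other Zfp36 probe, not shown, includes 0.

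Markers of other cells moved with the same groups. The mean level of 9 tested neutrophil markers was -6.08 to -5.32 on Flox water arrays and -6.03 to -5.33 on GR iKO water arrays. It was -1.75 to -0.80 on Flox DSS arrays and 0.18 to 1.81 on GR iKO DSS arrays, with 7 of 9 markers called higher in Flox and 9 of 9 in GR iKO. On water, 3 of these markers in Flox and 2 in GR iKO were well above background on every array. On no water array were 2 in Flox and 3 in GR iKO well above background. The water means therefore lie near the detection limit, and the size of the rise is not well measured. Of 10 macrophage markers, 6 rose in Flox and 8 in GR iKO. Of 6 smooth muscle markers, 5 rose in Flox and 0 in GR iKO, while 7 of 7 fibroblast and matrix markers rose in both. Of 8 colon epithelial markers of the tissue check, 4 fell in Flox and 5 in GR iKO, and 0 rose. Of 8 general epithelial markers, 1 rose and 3 fell in Flox, and 1 rose and 0 fell in GR iKO. Of 6 B and plasma cell markers, 5 fell in Flox and 2 in GR iKO. Of 7 T cell markers, 2 fell in Flox and 0 were called in GR iKO, and of 5 endothelial markers 2 rose in Flox and 1 in GR iKO. None of these markers was called between GR iKO and Flox on water or on DSS, or for the interaction. The part of the marker shifts in the member values was not tested.

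Other genes of the pathway, from lists chosen with earlier results known, are described by their counts. Of 18 other AP-1 family genes tested, 8 rose and 0 fell in Flox, and 13 rose and 0 fell in GR iKO, with median changes of 0.33 and 0.83. Crem, a CREB relative, rose by 2.42 in Flox and 2.35 in GR iKO. Jdp2, a Jun dimerization protein, rose by 1.93 and 1.83, and Atf5 by 1.63 and 1.15. Of 34 other immediate-early genes, 16 rose and 1 fell in Flox, and 16 rose and 0 fell in GR iKO, with medians of 0.67 and 0.77. By the change in Flox, the largest rises among those called in both were Gem, a small GTPase, by 4.73 and 3.43, Nfil3, a bZIP repressor, by 3.41 and 2.71, and Ier5l by 1.99 and 1.83. The order differed in GR iKO, where Ptgs2, chosen here after its values were seen, rose by 4.22 (1.82 in Flox).

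Upstream of the members, 6 of 23 kinases and factors rose and 7 fell in Flox, and 7 rose and 2 fell in GR iKO. The Flox counts are near the background. The kinases Mapk10 (JNK3) and Mapk11 (p38 beta) rose by 2.56 and 1.51 in Flox and by 1.80 and 1.93 in GR iKO. Elk3, an ETS partner of serum response factor, rose 2.46-fold and 2.45-fold. The kinases Map2k6 and Map2k1 differed by -1.96 and -1.17 in Flox and by -1.42 and -0.59 in GR iKO, and both passed the test in both.

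Of 15 genes known as AP-1 targets, 10 rose in Flox and 14 in GR iKO, and 0 fell, with medians of 2.26 and 4.03. The matrix protease Mmp3 rose by 7.35 and 7.33, the cytokine-like matrix protein Spp1 by 5.82 and 4.28, and the protease inhibitor Timp1 by 4.77 and 5.45. Il11, a cytokine of the IL-6 family, was the only gene of these lists called between GR iKO and Flox on DSS. Its levels ranged from -0.85 to -0.44 in Flox and from 1.24 to 2.14 in GR iKO on DSS, a difference of 2.35 ± 0.30 (5.09-fold, adjusted p = 0.045). The difference stayed between 2.10 and 3.56 under the alternatives, but the call was near the threshold. It was lost in 10 of 14 fits that left out 1 array (adjusted p from 0.023 to 0.338 over the 14). It was also lost with DSS arrays only (0.226), a slide block (0.097), a replicate block (0.0835), spike-in scaling (0.0556) and no filter on dim probes (0.052).

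Of 12 genes of the TTP family and its bound mRNAs, 10 rose and 1 fell in Flox, and 11 rose and 0 fell in GR iKO, with medians of the fitted changes of 4.31 and 6.46. Il6 was not well above background on water and is given as a bound: on DSS it was at least 55.3-fold higher in Flox and at least 135-fold higher in GR iKO (adjusted p = 1.35e-07 and 3.68e-08). Ccl2 rose by 5.51 and 6.36, and Il1b by 5.48 and 7.76.

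Of 10 genes listed as Myc partners, 1 rose and 5 fell in Flox, and 1 rose and 4 fell in GR iKO. That list includes Mycn and Mycl, which are relatives of Myc rather than partners. Mnt, a repressor that pairs with Max, rose by 0.88 and 0.76, while Mycn, Mycl and Mxd3 differed by -1.78, -1.61 and -1.28 in Flox and by -2.13, -0.85 and -1.16 in GR iKO, each passing the test. Of 14 known Myc targets, 0 rose and 5 fell in Flox, and 0 rose and 1 fell in GR iKO. Over all 15540 genes tested, 3796 were called lower in Flox and 3130 in GR iKO. Whether the 14 targets depart from these shares was not tested. Cdk4, a cell cycle kinase, differed by -0.64 and -0.77. None of the genes in these lists was called between the genotypes on water or for the interaction.

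**Figure D4:**
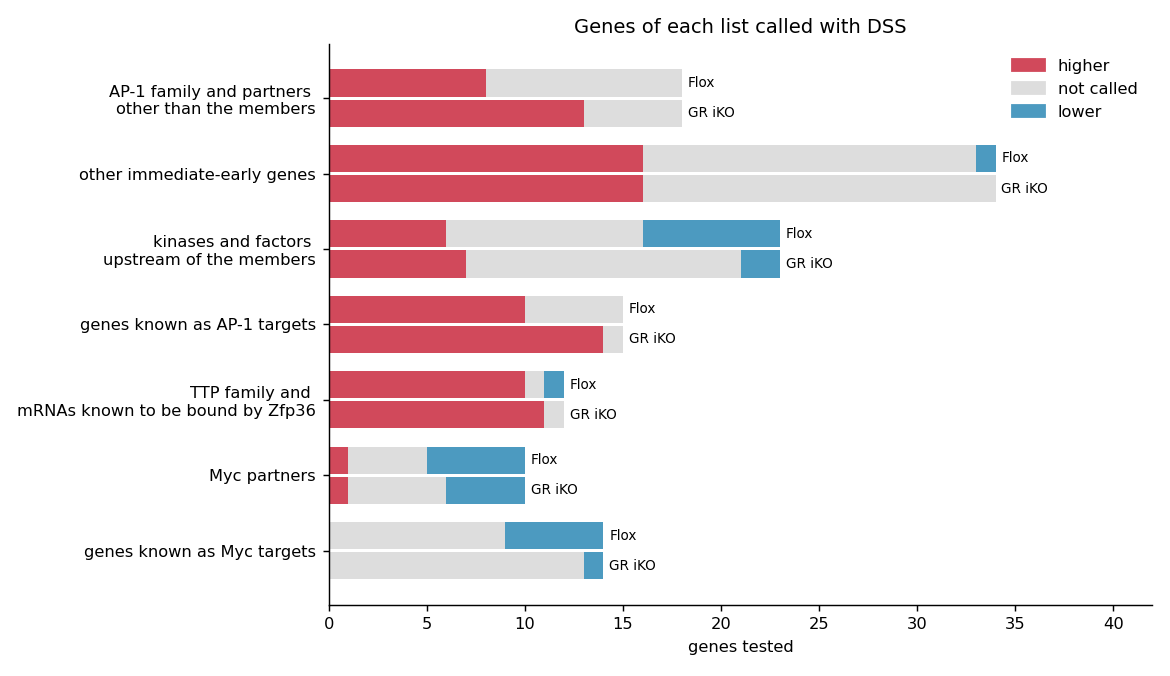
Number of tested genes (x axis) of each list called higher, called lower or not called with DSS in Flox and GR iKO. The lists of AP-1 targets and of TTP-bound mRNAs are mostly higher in both. The Myc lists hold more lower than higher genes. Of 14 Myc targets, 1 is lower in GR iKO, where 3130 of all 15540 genes tested are.

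After group means were removed, Fos and Fosb varied together across the 14 colons (Pearson r = 0.80), and so did Fosb and Egr1 (0.74) and Fosl1 and Ier3 (0.72). Jun ran opposite to Fosl1 (-0.74). These values share arrays and scaling and are a description. GR iKO DSS replicate 3 had the highest Fos, Fosb, Egr1, Atf3, Junb and Zfp36 of its group, and replicate 1 the highest Fosl1, Ier3 and Myc. Over 15539 other genes, those most like Fos in these deviations were Ppic (0.91), Gnai1 (0.90), Adam23 (0.89), Col6a5 (0.88) and Lcorl (0.88).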

How the data were processed

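The members were given as a list, and the other gene lists were chosen with earlier results of these data known. Per the labels, 500 ng of total RNA from each colon was labelled with Cy3 and hybridized to 1 array. The authors extracted spots with Agilent Feature Extraction 12.0.0.7, and Partek 6.6 is named in the submitters' processing notes. The deposited scanner files hold intensity values, background-subtracted but not scaled between arrays. A deposited table holds log2 values with equal medians (6.05), which correlated at 0.9988 or more with the log2 processed intensity. How it was normalized is not given in the sources used here.

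Here, 1639 control spots and flagged outliers were left out, spots of a probe averaged, and log2 intensity taken minus the 75th percentile of the array. Probes well above background on at least 3 of 14 arrays were tested (29523, of which 97 lacked a value on some array). Symbols came from accessions (28223 of 29245 matched), and a gene with several probes was represented by the brightest on average. Group means of all 14 arrays were fitted with limma 3.58.1 in R 4.3.3, with 1 weight per treatment (water 1.70, DSS 0.495). The 5 comparisons were tested two-sided, adjusted by Benjamini-Hochberg within each and called under 0.05. Tested on simulated data, calls kept near the nominal error where the DSS to water spread ratio was shared by all probes. Where each probe had its own ratio, more of the calls were false, most of all between genotypes on DSS. Named genes were the members, per list up to 3 per direction with the largest Flox change among those called in both genotypes, list genes called for genotype or interaction, Nr3c1, and the 5 genes most like Fos. Alternatives were other weights, normalizations and filters, slide or replicate blocks, and leaving out each array. The files hold no mean signal, so normexp (offset 50) used the median signal. Each array is 1 mouse, and their number limits the precision.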

Additional observations from a re-analysis of the deposited data

Results flagged for a closer look

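Jun in GR iKO water replicate 1 stood at 1.49, apart from the other 3 mice of the group at 1.82 to 1.84. It was the only one of 20 water groups of 4 mice, 2 per gene, in which 1 mouse lay further from the rest than Dixon's 95% limit allows, and chance gives about 1 in 20. DSS groups held 3 mice and were not examined in this way.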

How the results depend on the processing

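Over the 50 member results, 1129 of 1220 alternative values kept their direction and side of the threshold, 58 turned direction, 16 lost a call and 17 gained one. The cause was not tested.

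Scaled to spike-in transcripts, probes called were 25251 (DSS in Flox), 3 (genotype on water), 0 (genotype on DSS) and 8480 (interaction), and members called were 8 (DSS in Flox, all lower), 2 (DSS in GR iKO) and 5 (interaction). On that scale the Flox DSS changes that turned direction were -2.25 (Fosb), -1.80 (Fosl1), -1.76 (Jun), -0.93 (Junb), -0.77 (Egr1) and -1.33 (Zfp36). Those of Fos, Myc and Atf3, below 0 on either scale, were -2.90, -2.63 and -2.34. GR iKO DSS changes that turned were -0.55 (Fos), -0.25 (Jun) and -0.071 (Atf3). Genotype differences on water that turned were -0.14 (Fosb), -0.15 (Jun) and -0.072 (Atf3). Fosb also turned, to 0.77 on DSS and 0.91 for the interaction.

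With 1 shared spread, 1 probe was called between genotypes on water, 3902 on DSS and 33 for the interaction, and 2 members on DSS. With a weight per array, 3495 on DSS and 2065 for the interaction were called, with 2 and 1 members. Fosb in Flox was then -0.16, Fos on water 0.058, Ier3 on water 0.014 and Junb on DSS -0.0047. With the arrays of 1 treatment only, 3 probes were called on water and 0 on DSS. Normexp gave 4 on water and 6 for the interaction, Fosb in GR iKO at 0.028, and Ier3 at 0.061 and Zfp36 at 0.012 on water. Quantile normalization gave 3 for the interaction, Fosb in Flox at -0.060 and Ier3 on water at 0.0045. The value table gave 20 on DSS and 3 for the interaction, with Fosb in Flox at -0.059 and Ier3 on water at 0.0043. No filter gave 0 on DSS, a stricter one 1 for the interaction, and a slide block 0 on DSS.

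The main fit did not treat replicate numbers as pairs. Deviations of same-numbered mice correlated from -0.08 to 0.31 on water and at 0.18 and -0.03 on DSS. Without a reference for unpaired mice, these values do not settle whether the samples were paired. With the replicate block, 0 probes were called between genotypes on DSS, Jun in Flox had an adjusted p of 0.0501, Atf3 in GR iKO 0.0475, and Junb on DSS was -0.021.

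Leaving out 1 array, probes called ranged from 9148 to 14768 (DSS in Flox), 8736 to 11893 (DSS in GR iKO), 5 to 9 (water), 0 to 810 (genotype on DSS) and 0 to 48 (interaction). Of the members, 3 to 5, 4 to 7, 0, 0 to 1 and 0 were called. The 3 came without Flox DSS replicate 2, the 810 without Flox DSS replicate 4, and 718 without GR iKO DSS replicate 3. Members whose sign turned ranged for DSS against water in Flox from -0.31 to 0.41 (Fosb), -0.033 to 0.86 (Fosl1), -0.26 to 0.26 (Atf3). They ranged for DSS against water in GR iKO from -0.37 to 0.014 (Myc). They ranged for GR iKO against Flox on water from -0.24 to 0.23 (Fos), -0.10 to 0.28 (Fosb), -0.052 to 0.12 (Jun), -0.50 to 0.014 (Egr1), -0.13 to 0.23 (Atf3), -0.037 to 0.048 (Ier3), -0.097 to 0.035 (Zfp36). They ranged for GR iKO against Flox on DSS from -0.079 to 0.12 (Junb), -0.33 to 0.45 (Egr1). They ranged for genotype by DSS interaction from -0.015 to 0.27 (Jun), -0.095 to 0.69 (Egr1), -0.11 to 0.39 (Myc).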
